A study of Mus musculus with 2 samples.

Results

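The vascular basement membrane was examined through 10 genes of the 32285 measured in each library: the collagen IV genes Col4a1 and Col4a2, the laminin chain genes Lama1, Lama4, Lama5, Lamb1, Lamb2 and Lamc1, and the nidogen genes Nid1 and Nid2. The genes were taken by symbol, in a list drawn up with earlier results of these data known. Each symbol matched 1 gene of the matrices.

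To examine lung endothelial cells (ECs) shortly after the arrival of circulating melanoma cells, wild-type C57BL/6 mice were injected through the tail vein with PBS (control) or with 400000 B16-F10 cells, a mouse skin melanoma line labelled with a green tracker dye, in 100 µl. Lungs were collected after 6 h in both groups and digested with collagenase Type I. Sorting kept cells that carried Pecam1, a surface protein of endothelium, and lacked Ptprc, a surface protein of leukocytes, these were pooled per treatment, and dyed melanoma cells sorted from the injected lungs joined the B16-F10 pool. The labels give 2 mice per treatment, and each group was 1 single-cell library (control and B16-F10 6 h), so treatment, pool and library cannot be told apart and no difference was tested.

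The basement membrane is a thin sheet of matrix under the endothelium. Laminins, each built from an alpha, a beta and a gamma chain, assemble on the cell surface, collagen IV forms a covalently linked network, and nidogens bind both. In the alveolus the sheet of the capillary fuses with that of the epithelium, and gas crosses it chiefly beside the aerocyte capillary ECs (aCap), while general capillary ECs (gCap) act as the progenitors of the capillary bed.

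The control library held 85794655 unique molecular identifiers (UMIs, each marking 1 captured RNA molecule) and the B16-F10 6 h library 104978816. Among barcodes that had 1000 to 5000 genes and less than 20% of UMIs from mitochondria, 7830 and 7767 cells remained once predicted doublets were removed, with a median of 7500 and 8557 UMIs. Clusters built without the genes described here were named from marker lists, which gave 4922 control and 4516 B16-F10 6 h cells in gCap-like clusters, 1451 and 974 in aCap-like, 182 and 140 in artery-like, 304 and 302 in vein-like and 58 and 47 in lymphatic (LEC-like) clusters. All 8 markers of its own list were detected in each class, but this does not tell the classes apart. In gCap-like ECs all 8 markers of the aCap, artery, vein and LEC lists were detected too, in both libraries. By summed UMIs the own list was the highest of the 5 vessel lists in each class and library. It was closest in artery-like ECs of B16-F10 6 h, with 4266 artery and 3929 gCap marker UMIs. The same lists named the clusters, so this order is not independent evidence. The libraries shared 19 cell barcodes among the cells within these limits. Levels are UMIs per 1000000 UMIs of the class and library (CPM) with exact Poisson 95% intervals. Differences are log2 ratios of B16-F10 6 h over control with an exact binomial interval, and a difference was called beyond counting error where that interval left out 0. All intervals cover counting error only, not the variation between mice.

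In control lungs both collagen IV genes were at their highest in the capillaries. Col4a1 was at 1157 CPM (1139 to 1176) in aCap-like ECs, 871 CPM (861 to 880) in gCap-like, 503 CPM (442 to 571) in LEC-like, 416 CPM (394 to 439) in vein-like and 190 CPM (168 to 215) in artery-like ECs. No neighbours in this order had overlapping intervals, and the aCap-like level was 6.08-fold the artery-like level. Col4a2 followed the same order, from 791 CPM (776 to 807) in aCap-like and 479 CPM (472 to 486) in gCap-like to 84.4 CPM (69.8 to 101) in artery-like ECs, with overlapping intervals between LEC-like (206 CPM) and vein-like ECs (157 CPM).

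The B16-F10 6 h library had more of both transcripts in all 4 blood vessel classes, and not in LEC-like ECs. In gCap-like ECs Col4a1 was at 871 CPM (32170 UMIs) in control and 1177 CPM (46509 UMIs) in B16-F10 6 h, 1.35-fold. Col4a2 was at 479 and 701 CPM, 1.46-fold. Both differences were beyond counting error, and together the pair gave a log2 ratio of 0.48 (0.46 to 0.49). Col4a1 is among the 50 rCap (reactive capillary) markers of the study and Col4a2 is named by it, both chosen partly on these libraries, so their direction in gCap-like ECs is not independent evidence.

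In aCap-like ECs the same transcripts differed by less. Col4a1 was at 1157 CPM in control and 1234 CPM in B16-F10 6 h, a log2 ratio of 0.093 (0.060 to 0.13). Col4a2 was at 791 and 882 CPM, a log2 ratio of 0.16 (0.12 to 0.20). With each cell thinned to 2000 UMIs the ratio of the pair was 0.025 in place of 0.12. The gap in Col4a1 between the capillary types was thus 1157 against 871 CPM in control and 1234 against 1177 CPM in the B16-F10 6 h library, where the intervals still did not overlap.

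The larger vessels had lower levels than the capillaries in both libraries. In artery-like ECs Col4a1 was at 190 CPM in control and 311 CPM in B16-F10 6 h, with a log2 ratio of 0.71 (0.48 to 0.94), and Col4a2 at 84.4 and 145 CPM with a ratio of 0.79 (0.45 to 1.13). The artery-like ratio of the pair was 0.73 and depended on how the 182 and 140 cells were chosen, from 0.25 with these genes kept in the clustering to 0.97 with no upper limit of genes. Marker levels of this class also differed between control and B16-F10 6 h. Artery markers summed to 4308 and 3232 CPM and gCap markers to 2355 and 2977 CPM, and their bearing on the ratio was not tested. In vein-like ECs Col4a1 was at 416 and 550 CPM, a ratio of 0.40 (0.30 to 0.50). Vein-like Col4a2 was at 157 and 275 CPM, with the larger ratio of 0.81 (0.65 to 0.97). The balance of the 2 chains differed with it: Col4a2 held 27.4% (25.3 to 29.5, exact Clopper-Pearson) of the collagen IV UMIs of vein-like ECs in control and 33.3% (31.6 to 35.1) in B16-F10 6 h. In gCap-like ECs this share was 35.5% and 37.3%, in aCap-like 40.6% and 41.7%, and in artery-like 30.7% and 31.8%. In LEC-like ECs, with 242 and 213 UMIs, Col4a1 was at 503 and 475 CPM, and its ratio of -0.082 had an interval of -0.35 to 0.19, so that a difference of the size seen in artery-like ECs lay outside the interval.

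Col4a1 and Col4a2 are neighbours that are transcribed away from each other. In GRCm38, the build of mm10, Col4a1 lies on the minus strand at chr8:11198423-11312826 and Col4a2 on the plus strand at chr8:11312805-11449287, so the annotated genes overlap by 22 bases at their starts. This stretch is shown because it is the point from which both collagen IV transcripts of the network are read. In RefSeq GRCm38.p6 it reads on the plus strand, at chr8:11312801-11312830, with the shared bases in capitals:
Col4a1 and Col4a2 shared start: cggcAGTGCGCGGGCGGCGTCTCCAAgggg
The shared bases hold GGGCGG, the letters of a GC box. RefSeq promoter windows, from 250 bases before to 50 bases after a gene's start, were matched for 6 of the 10 genes (Col4a1, Col4a2, Lama5, Lamb1, Lamb2 and Nid1), and those of Col4a1 and Col4a2 overlap by 78 bases. On either strand, GGGCGG was found once or more in 5 of these 6 windows, against 35.9% of 27025 promoters, CCAAT in 4 against 37.9%, CCCTCCCC in 4 against 10.4% and TATAAA in 0 against 14.2%. Lamb2 had no match to any of these 4. The GGGCGG of the shared bases lies in both collagen IV windows and counts for each. Whether their CCAAT and CCCTCCCC matches are shared sites was not checked, so the 6 windows are not independent. Such matches are letters in a window, and no binding was measured. Whether reads were assigned by strand is not given in the sources used here, so UMIs from bases shared with an antisense gene (Col4a1 with Col4a2 and Gm15418, Col4a2 with Col4a1 and Gm15419, Lamc1 with Gm8818, Nid1 with Gm48682 and Nid2 with Rtraf) are uncertain.

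**Figure D1:**
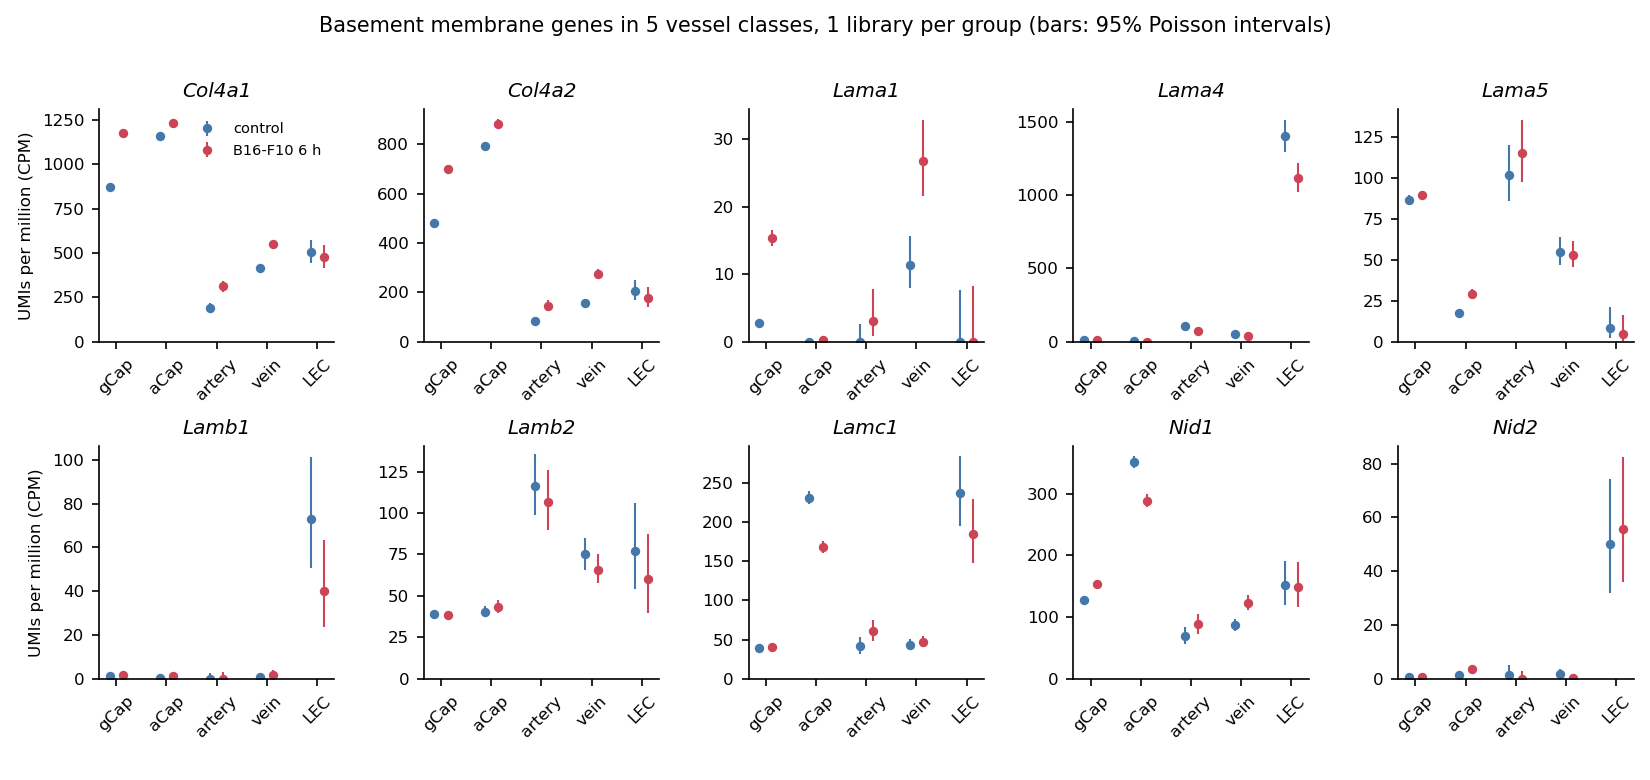
Level of each of the 10 genes (vertical axes, CPM, each starting at 0) in 5 vessel classes of the control (blue) and B16-F10 6 h (red) libraries. Points are 1 library each and bars are 95% Poisson intervals. Col4a1 sits highest in aCap-like ECs (1157 and 1234 CPM), Lama4 in LEC-like ECs (1399 and 1116 CPM) and Lama1 in vein-like ECs (11.3 and 26.7 CPM).

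The laminin alpha chains divided the vessel types between them. Lama4, the alpha chain of a laminin laid down early in vessels, was a transcript of LEC-like ECs, at 1399 CPM (1296 to 1509) in control, well above artery-like ECs at 107 CPM (90.9 to 126). It was at 51.7 CPM in vein-like, 13.9 CPM in gCap-like and 1.07 CPM in aCap-like ECs, with no overlap between neighbours. Lama5, the alpha chain common in mature endothelial and epithelial basement membranes, had another order, with 102 CPM (85.6 to 120) in artery-like and 86.5 CPM (83.5 to 89.6) in gCap-like ECs, whose intervals overlapped. It was at 54.8 CPM in vein-like, 17.4 CPM in aCap-like and 8.32 CPM (4 UMIs) in LEC-like ECs, and the last pair of classes overlapped. The Lama4 share of the alpha chain UMIs was 99.4% in LEC-like and 5.79% in aCap-like ECs of the control library. The genes lie on different chromosomes, Lama1 at chr17:67697259-67822647, Lama4 at chr10:38965515-39110188 and Lama5 at chr2:180176373-180225859 (GRCm38).

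Lama1, the alpha chain best known from embryonic and epithelial basement membranes, was rare and among the 5 classes of the control library had UMIs in vein-like and gCap-like ECs only, and it had the largest ratio of the 10 genes in gCap-like ECs. It was at 2.79 CPM (2.28 to 3.38, 103 UMIs) in control and 15.3 CPM (14.1 to 16.6, 606 UMIs) in B16-F10 6 h, 5.50-fold, a log2 ratio of 2.46 (2.16 to 2.78). At a clustering resolution of 1.6, which assigned other cells to the class, it was 1.24. In vein-like ECs it was at 11.3 CPM (36 UMIs) and 26.7 CPM (91 UMIs), a log2 ratio of 1.24 (0.67 to 1.84), or 0.25 with each cell thinned to 2000 UMIs. In aCap-like ECs there were 0 Lama1 UMIs among 13127471 in control, which allows up to 0.229 CPM, and 2 in B16-F10 6 h. Artery-like ECs had 0 and 4 Lama1 UMIs and LEC-like ECs 0 in both libraries.

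Few cells carried the Lama1 UMIs. In gCap-like ECs 61 control cells and 258 B16-F10 6 h cells had at least 1 Lama1 UMI. The highest cell held 8 UMIs in control and 53 in B16-F10 6 h, and the 10 highest cells held 38.8% and 26.7% of the UMIs. With each cell thinned to 2000 UMIs, 0.412% (0.252 to 0.635) of control and 1.87% (1.496 to 2.31) of B16-F10 6 h gCap-like cells had a Lama1 UMI (1.24% and 5.71% unthinned), against 0 of 1434 and 0 of 968 thinned aCap-like cells. Median depth before thinning was 7326 and 8459 UMIs in gCap-like and 9133 and 11341 in aCap-like ECs.

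Lama4 was lower in the B16-F10 6 h library in the classes with enough UMIs to tell. It was at 13.9 CPM (513 UMIs) in control and 8.91 CPM (352 UMIs) in B16-F10 6 h in gCap-like ECs, a log2 ratio of -0.64 (-0.84 to -0.44). In artery-like ECs it was at 107 and 72.7 CPM (-0.56, -0.95 to -0.18), in vein-like at 51.7 and 37.3 CPM (-0.47, -0.82 to -0.13) and in LEC-like at 1399 and 1116 CPM (-0.33, -0.50 to -0.16). All 4 ratios were negative beyond counting error. In aCap-like ECs there were only 14 and 8 Lama4 UMIs.

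Lama5 was level between the libraries in gCap-like ECs, at 86.5 and 89.2 CPM with a log2 ratio of 0.043 (-0.026 to 0.11). In aCap-like ECs it was at 17.4 CPM (228 UMIs) in control and 29.0 CPM (316 UMIs) in B16-F10 6 h, 1.67-fold, a log2 ratio of 0.74 (0.49 to 0.99). With each cell thinned to 2000 UMIs this ratio was 0.37, and 3.70% and 4.24% of cells had a Lama5 UMI, with overlapping intervals (12.9% and 23.1% unthinned). Artery-like (102 and 115 CPM) and vein-like ECs (54.8 and 52.9 CPM) did not differ beyond counting error. The make-up of the alpha chain UMIs differed between the libraries. In gCap-like ECs the Lama1 share was 2.70% and 13.5%, the Lama4 share 13.5% and 7.86% and the Lama5 share 83.8% and 78.6%. In vein-like ECs Lama1 held 9.63% and 22.9% and Lama4 43.9% and 31.9%, while Lama5 stayed at 46.5% and 45.2%.

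The beta and gamma chains varied by gene and class. Summed over all 6 chains, laminin UMIs gave a log2 ratio of 0.084 (0.037 to 0.13) in gCap-like ECs, which was -0.010 at a clustering resolution of 1.6, and of -0.26 (-0.34 to -0.19) in aCap-like ECs. Lamb2 (chr9:108479736-108490530), a beta chain frequent in mature vessels, was at 39.3 and 38.4 CPM in gCap-like and at 40.5 and 43.3 CPM in aCap-like ECs, and no vessel class differed beyond counting error. Its level in control was higher in artery-like (116 CPM, 98.9 to 136) than in either capillary class. Lamb1 (chr12:31265234-31329644), the other beta chain, was at 72.8 CPM in LEC-like ECs of the control library and 68.9-fold lower in gCap-like ECs at 1.06 CPM. In gCap-like ECs Lamb1 was at 1.06 CPM (39 UMIs) and 1.87 CPM (74 UMIs), a log2 ratio of 0.83 (0.25 to 1.43), with 6 and 14 UMIs in aCap-like ECs (1.49, 0.020 to 3.16). In LEC-like ECs it was at 72.8 CPM (35 UMIs) and 40.2 CPM (18 UMIs), where the interval of -1.76 to 0.0019 just included 0. Lamb1 held 48.6% (36.7 to 60.7) of the beta chain UMIs of LEC-like ECs in control, against 2.61% in gCap-like ECs.

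Lamc1 (chr1:153218922-153332786), the gamma chain of most laminins, was lower in the B16-F10 6 h library in aCap-like ECs. In control it was high in LEC-like ECs (237 CPM, 196 to 285) and aCap-like ECs (232 CPM, 224 to 240), whose intervals overlapped, and 5.92-fold lower than the aCap-like level in gCap-like ECs at 39.1 CPM. In aCap-like ECs it was at 232 CPM (3042 UMIs) in control and 168 CPM (1835 UMIs) in B16-F10 6 h, a log2 ratio of -0.46 (-0.55 to -0.38). In gCap-like ECs it was at 39.1 and 40.0 CPM, a ratio of 0.033 (-0.071 to 0.14), and in artery-like ECs at 41.1 (57 UMIs) and 60.6 CPM (80 UMIs), a ratio of 0.56 (0.052 to 1.08). After thinning, 37.9% of control and 28.7% of B16-F10 6 h aCap-like cells had a Lamc1 UMI, the direction of the summed level (77.1% and 74.95% unthinned).

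Nid1 (chr13:13437551-13512269), the nidogen of most basement membranes, was highest in aCap-like ECs and lay in opposite directions in the 2 capillary types. In control it was at 352 CPM (342 to 362) in aCap-like, 152 CPM in LEC-like, 127 CPM in gCap-like, 86.7 CPM in vein-like and 68.5 CPM in artery-like ECs, with overlap between LEC-like and gCap-like and between vein-like and artery-like ECs. In aCap-like ECs it was at 352 CPM in control and 289 CPM in B16-F10 6 h, a log2 ratio of -0.28 (-0.35 to -0.22). In gCap-like ECs it was at 127 and 154 CPM, a ratio of 0.28 (0.22 to 0.33), and in vein-like at 86.7 and 123 CPM, a ratio of 0.51 (0.28 to 0.73). The difference between these ratios was not tested. Nid2 (chr14:19751265-19811787), which can stand in for Nid1 in many tissues, was a transcript of LEC-like ECs, at 49.9 and 55.8 CPM (24 and 25 UMIs). In aCap-like ECs 19 Nid2 UMIs in control and 37 in B16-F10 6 h gave 1.45 and 3.39 CPM (log2 ratio 1.23, 0.39 to 2.11), and in gCap-like ECs there were 16 and 22 UMIs.

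**Figure D2:**
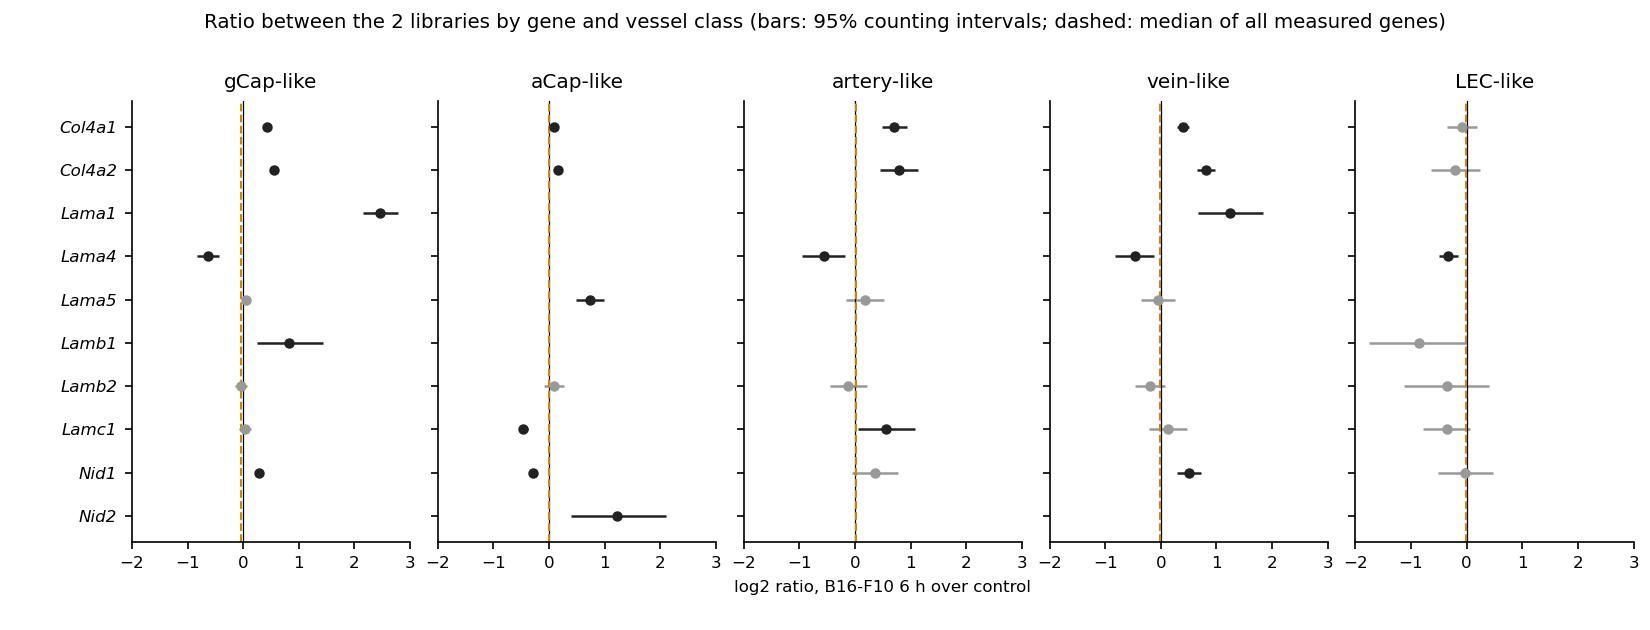
Log2 ratio of B16-F10 6 h over control (horizontal axis) for each gene with at least 50 UMIs over both libraries in 5 vessel classes. Bars are 95% counting intervals, black points lie beyond counting error, grey points do not, and the dashed line is the median of all measured genes. Lama1 is farthest to the right in gCap-like ECs (2.46), Lama4 is left of 0 in 4 classes, and Nid1 lies right of 0 in gCap-like (0.28) and left in aCap-like ECs (-0.28).

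These counts were set against the background of all genes with at least 50 UMIs over both libraries in a class. In gCap-like ECs 9 of the 10 genes reached that number (all but Nid2), and 5 of the 9 were higher beyond counting error, where 28.8% of 13257 genes were, and 1 was lower, where 35.0% were. Past a log2 ratio of 0.5 lay 3 of the 9 (Col4a2, Lama1 and Lamb1) against a background of 9.79%, and past -0.5 lay 1 (Lama4) against 12.5%. Their median log2 ratio was 0.28, and that of all measured genes was -0.037. In aCap-like ECs 4 of 7 measured genes were higher (background 27.9% of 11110) and 2 lower (27.5%), with 2 past 0.5 (9.40%) and 0 past -0.5 (11.2%), and the medians were 0.094 and 0.0064. So many genes lay beyond counting error in the capillary classes that the shares of higher and lower genes say little by themselves.

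In artery-like ECs 3 of 7 measured genes were higher (16.4% of 7226) and 1 lower (14.2%), with a median of 0.36 against 0.019. In vein-like ECs 4 of 8 were higher (12.7% of 9416) and 1 lower (14.6%), with a median of 0.26 against -0.023. In LEC-like ECs 0 of 7 were higher (9.75% of 3875) and 1 was lower (10.3%), with a median of -0.33 against -0.011. The median of the measured genes thus lay above that of all genes in the 4 blood vessel classes and below it in LEC-like ECs, with 58 and 47 cells behind the latter.

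The gCap-like class was made of 6 clusters, each with cells of both libraries but in different shares, and each named here by its first leading gene. The Sox11-led cluster held 34.6% of control and 14.9% of B16-F10 6 h gCap-like cells, the Esm1-led 23.8% and 19.0%, the Adgrl3-led 15.0% and 7.93%, the Ntrk2-led 13.3% and 14.1%, the Chrm2-led 12.1% and 22.7%, and the Lalba-led 1.30% and 21.3%. Col4a1 was higher in B16-F10 6 h beyond counting error in 6 of 6 clusters, with log2 ratios from 0.075 in the Ntrk2-led to 0.52 in the Adgrl3-led cluster. Col4a2 was also higher in 6 of 6, from 0.14 in the Ntrk2-led to 0.61 in the Lalba-led cluster. The level itself depended on the cluster: Col4a1 was at 1248 CPM in control and 1684 CPM in B16-F10 6 h in the Lalba-led cluster (64 and 962 cells), and at 767 and 911 CPM in the Esm1-led cluster (1173 and 857 cells).

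With the clusters weighted by their shares of control cells, the gCap-like log2 ratio was 0.23 for Col4a1 and 0.35 for Col4a2, against 0.44 and 0.55 for the plain sums. Lama1 was higher beyond counting error in 5 of 6 clusters, all but the Adgrl3-led, from 7.49 to 33.6 CPM in the Ntrk2-led and from 5.92 (3 UMIs) to 29.5 CPM in the Lalba-led cluster, and its weighted ratio was 1.80. Lama4 was lower beyond counting error in 3 of 6 (the Sox11-led, Esm1-led and Adgrl3-led), with a weighted ratio of -0.80. Nid1 was higher in 2 of 6 (Sox11-led and Chrm2-led), with a weighted ratio of 0.11. Lama5 and Lamc1 differed beyond counting error in 0 of 6 clusters.

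The aCap-like class had a Fibin-led cluster with 62.0% of control and 92.6% of B16-F10 6 h cells and a Tmeff2-led cluster with 37.97% and 7.39%. Lamc1 was lower in both, at 214 and 167 CPM in the Fibin-led and 284 and 202 CPM in the Tmeff2-led cluster. Nid1 was also lower in both, at 341 and 289 CPM and at 383 and 275 CPM. Lama5 was higher in both, at 15.8 and 28.1 CPM and at 22.04 and 56.04 CPM (20 UMIs). Col4a1 and Col4a2 were higher beyond counting error in the Fibin-led cluster only, with log2 ratios of 0.097 and 0.18 there against 0.012 (-0.14 to 0.16) and 0.11 (-0.057 to 0.28) in the other, and these pairs of ratios were not compared by a test.

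**Figure D3:**
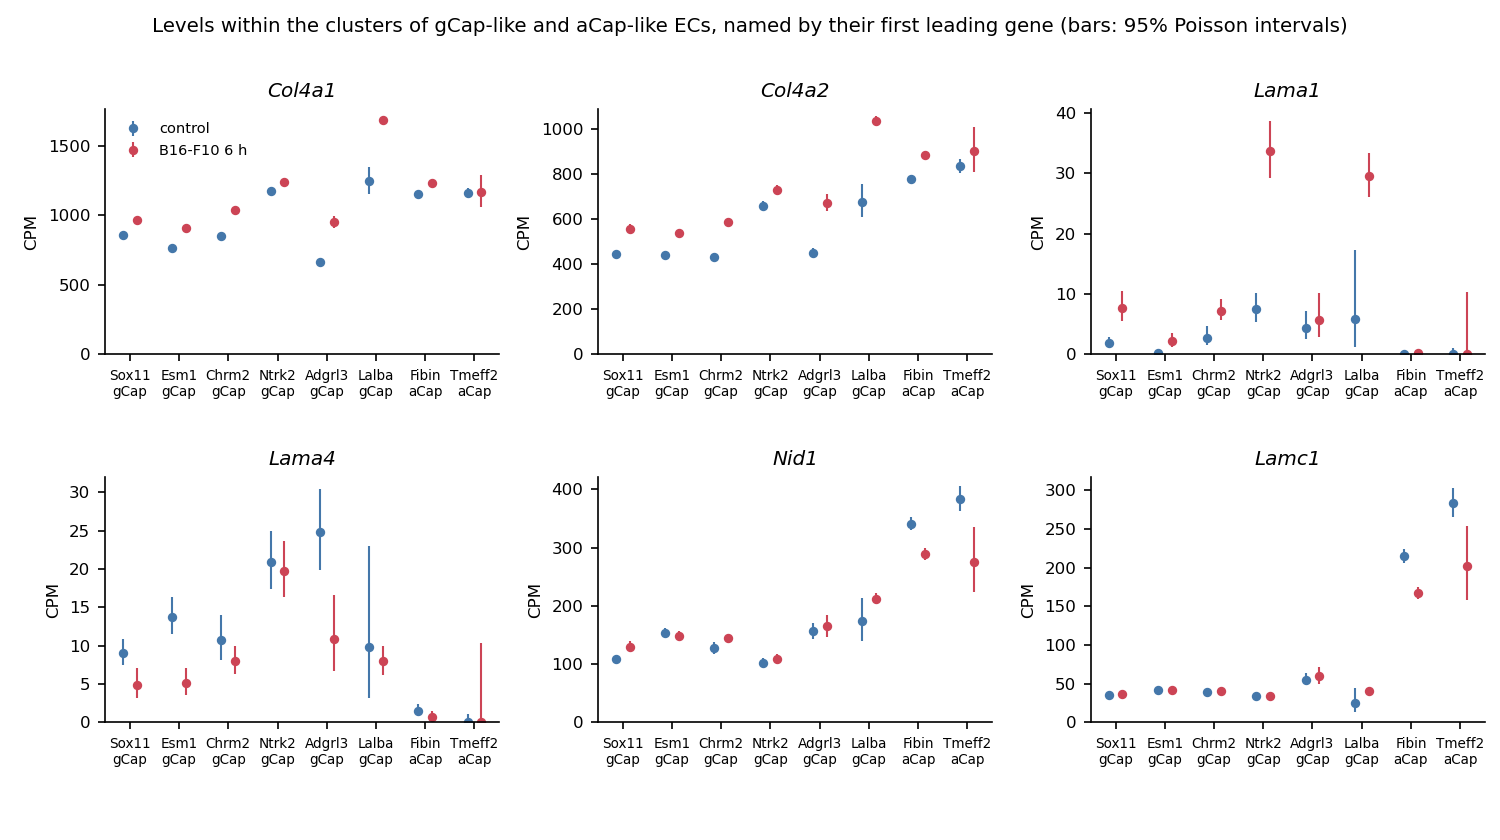
Levels (vertical axes, CPM, from 0) of 6 genes in the 6 gCap-like and 2 aCap-like clusters (horizontal axes, first leading gene and class) of the control (blue) and B16-F10 6 h (red) libraries, with 95% Poisson intervals. Red lies above blue for Col4a1 and Col4a2 in all 6 gCap-like clusters, with the highest Col4a1 in the Lalba-led cluster (1684 CPM), and below blue for Nid1 and Lamc1 in both aCap-like clusters.

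Single cells carried few collagen IV UMIs, so the levels were also followed cell by cell at equal depth. Each cell was thinned to 2000 UMIs, which left out 63 control and 30 B16-F10 6 h gCap-like cells that were shallower. In gCap-like ECs 77.4% (76.2 to 78.6) of control and 84.5% (83.4 to 85.5) of B16-F10 6 h cells had a Col4a1 UMI (95.8% and 98.6% unthinned). For Col4a2 these shares were 56.6% (55.2 to 58.04) and 69.8% (68.5 to 71.2), and 88.6% and 95.9% unthinned. The mean per thinned cell was 1.72 and 2.30 Col4a1 UMIs and 0.934 and 1.39 Col4a2 UMIs, and 5.25% and 12.4% of cells held 5 or more Col4a1 UMIs. The whole distribution stood to the right in the B16-F10 6 h library, with no second peak.

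In aCap-like ECs the thinned shares were 88.4% (86.7 to 90.03) and 87.1% (84.8 to 89.1) for Col4a1 and 76.6% and 78.1% for Col4a2, with overlapping intervals. For Nid1 they were 48.0% and 40.5% in aCap-like and 21.6% and 24.3% in gCap-like ECs, the directions of the summed levels. In melanoma-like cells (56 cells and 673544 UMIs, all in the B16-F10 6 h library), Col4a1 was at 20.8 CPM, Col4a2 at 5.94 CPM and Lama1 at 0 UMIs, which allows up to 4.45 CPM.

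**Figure D4:**
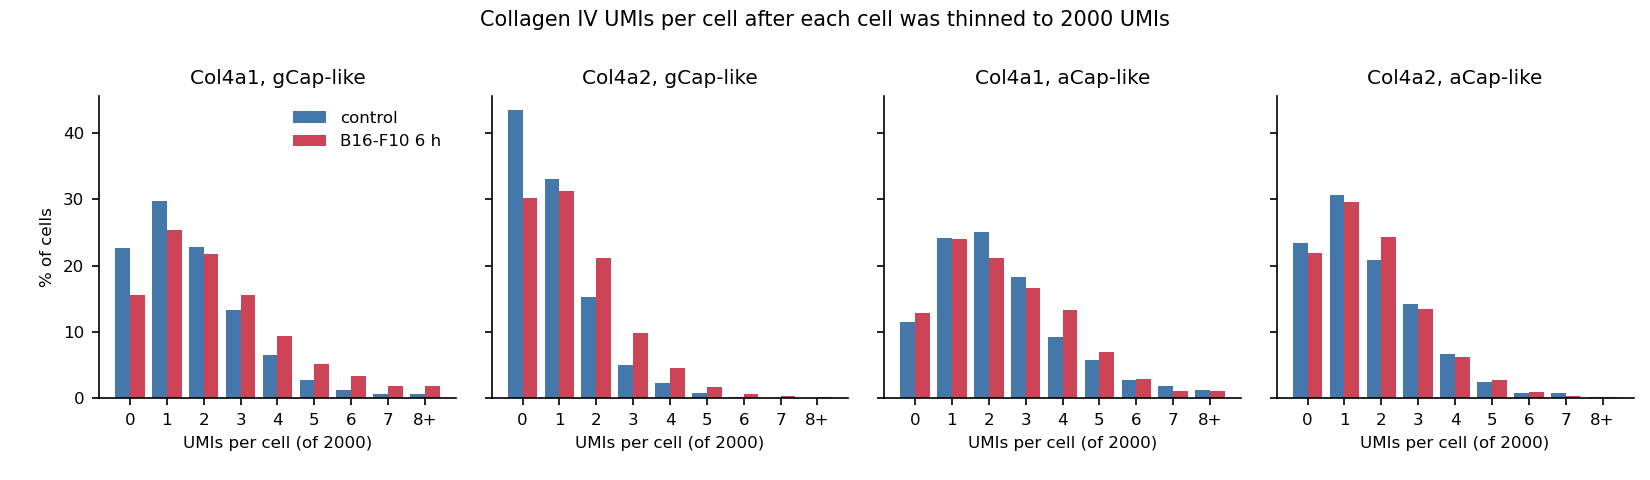
Share of cells (vertical axis, %) by the number of Col4a1 or Col4a2 UMIs per cell (horizontal axis) after each gCap-like or aCap-like cell was thinned to 2000 UMIs, control blue and B16-F10 6 h red. In gCap-like ECs the share at 0 is 22.6% in control and 15.5% in B16-F10 6 h for Col4a1 and 43.4% and 30.2% for Col4a2, while the aCap-like bars lie close together.

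The levels were then followed along the rCap programme, the transcripts by which the study marks capillary ECs reacting to melanoma cells. The score of a gCap-like cell was the number of its 2000 thinned UMIs that came from 44 rCap markers, with Col4a1 and the markers shared with the study's interferon list left out. Over 34 such UMIs were found in 4.47% of control cells (217) and 53.7% of B16-F10 6 h cells (2411). The limit of 34 and the lower ranges were set from the control scores themselves, so a small control share was fixed in advance. The study chose its rCap markers partly on these libraries, so these shares are not independent evidence either. The score is a continuous range, with 253 control and 696 B16-F10 6 h cells between 32 and 37. Col4a1 is itself an rCap marker of the study and Col4a2 is named by it, both chosen partly on these libraries. Their levels along the score are therefore not independent evidence.

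In the B16-F10 6 h library Col4a1 was at 907 CPM (801 to 1023) in cells with a score up to 16 and at 1313 CPM (1281 to 1346) in cells over 34. Control cells had 852 CPM (819 to 887) and 977 CPM (886 to 1075) at the same ends. Col4a2 was at 569 and 783 CPM in B16-F10 6 h and at 476 and 548 CPM in control. At a score up to 16 the intervals of both genes overlapped between the libraries, and over 34 they did not. For Col4a1 they were also apart over 25 and up to 34, at 872 CPM (829 to 916) in control and 993 CPM (953 to 1035) in B16-F10 6 h. For Col4a2 they were already apart between 17 and 20, at 447 CPM (421 to 476) in control and 604 CPM (540 to 672) in B16-F10 6 h, and in both ranges above that.

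Lama1 was at 20.7 CPM (16.9 to 25.2, 100 UMIs) in B16-F10 6 h cells over 34 and between 0 and 5.34 CPM in the 4 lower ranges, while control cells over 34 had 2 Lama1 UMIs (4.61 CPM, 0.558 to 16.7). Nid1 was at 121 CPM (84.1 to 168) and 164 CPM (153 to 176) at the ends in B16-F10 6 h and at 125 and 157 CPM in control. Across single thinned gCap-like cells Pearson's r of Col4a1 with the score was 0.036 in control (4859 cells) and 0.24 in B16-F10 6 h (4486 cells), and of Col4a1 with Col4a2 0.19 and 0.25. These are descriptions over cells that share a library, in sparse counts.

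**Figure D5:**
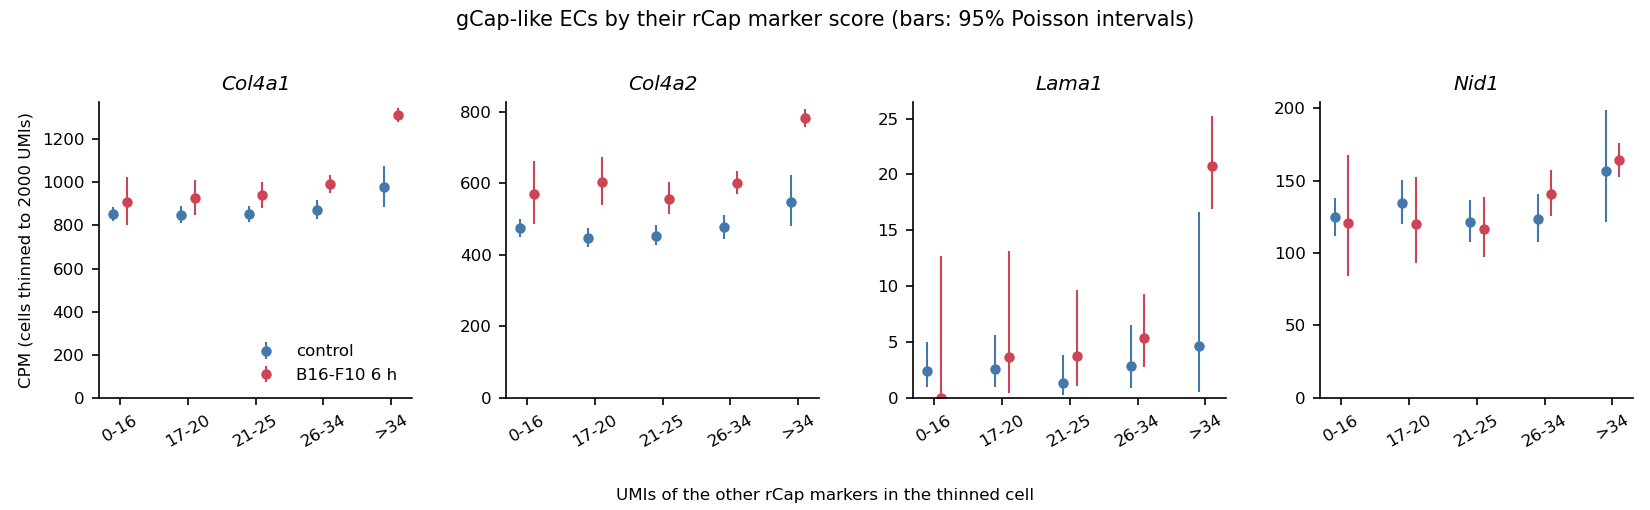
Levels of Col4a1, Col4a2, Lama1 and Nid1 (vertical axes, CPM from 0) in gCap-like cells thinned to 2000 UMIs, in 5 ranges of the number of UMIs from the other rCap markers (horizontal axes), control blue and B16-F10 6 h red, with 95% Poisson intervals. Above 34 UMIs the B16-F10 6 h cells have 1313 CPM of Col4a1, 783 CPM of Col4a2 and 20.7 CPM of Lama1, each above all lower ranges. Col4a1 is itself an rCap marker chosen partly on these libraries, so its rise with the score is not independent evidence.

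Other basement membrane genes in gCap-like ECs lay on both sides of 0. Of 28 such genes 18 were measured, of which 7 were higher (background 28.8%) and 7 lower (35.0%) beyond counting error, with a median log2 ratio of 0.095. Past 0.5 lay 4 of the 18 (background 9.79%) and past -0.5 lay 4 (12.5%). Higher past 0.5 were Col18a1, the source of endostatin (0.866 and 4.84 CPM, log2 ratio 2.48), Col15a1, a related collagen of capillary basement membranes (4.41 and 13.9 CPM, 1.65), Vwa1, a perlecan-binding protein (0.97), and fibronectin, Fn1 (0.53). Lower past -0.5 were Col8a1 (-0.93), the further collagen IV chain Col4a3 (-0.90), the further laminin gamma chain Lamc3 (9.96 and 6.08 CPM, -0.71) and hemicentin, Hmcn1 (1328 and 919 CPM, -0.53). Perlecan, Hspg2, was at 2.63 and 3.57 CPM (0.44, 0.060 to 0.83), and Sparc, a collagen-binding matrix protein, at 618 and 734 CPM (0.25, 0.22 to 0.27). In aCap-like ECs 12 of the 28 were measured, 4 higher (background 27.9%) and 5 lower (27.5%). Past 0.5 lay 4 (background 9.40%) and past -0.5 lay 2 (11.2%), with Col18a1 at 1.75 and 11.6 CPM (2.73) and Lamc3 at 34.7 and 16.4 CPM (-1.08).

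Genes for folding, modifying and crosslinking collagen also lay on both sides of 0 in gCap-like ECs. Of the 26 listed 22 were measured, 9 higher (background 28.8%) and 7 lower (35.0%) beyond counting error, with a median of 0.065. Past 0.5 (background 9.79%) lay Loxl3, within counting error, and the crosslinking enzyme Lox (0.595 and 1.06 CPM, 0.84, 0.059 to 1.65). Past -0.5 (background 12.5%) lay the collagen lysyl hydroxylase Plod2 (37.998 and 21.5 CPM, -0.82, -0.95 to -0.70). Serpinh1, the collagen chaperone, was at 138 and 159 CPM (0.20, 0.15 to 0.26). In aCap-like ECs 4 of 20 measured genes were higher (background 27.9%) and 7 lower (27.5%), Plod2 again lower (61.1 and 35.9 CPM, -0.77).

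Over 10 sums (5 vessel classes in 2 libraries) the gene most like Col4a1 among 3775 genes with at least 20 UMIs in each sum was Col4a2 (Pearson's r 0.98), followed by Gimap4 (0.93), Carhsp1 (0.93), Elovl1 (0.92) and Gnb1 (0.92). Nid1 had an r of 0.84, Lamc1 of 0.30 and Lamb2 of -0.96. These sums share libraries, and the r values describe them without a test.

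Markers of other cell types moved with the library in gCap-like ECs. Markers of mural cells, which also make basement membrane, summed to 28.5 CPM in control and 44.9 CPM in B16-F10 6 h with 8 of 8 detected in both. Fibroblast markers summed to 15.5 and 24.4 CPM, with 7 of 8 detected and Lum at 0 in both. Melanoma markers summed to 26.9 and 53.8 CPM, with Mlana, Tyrp1 and Slc45a2 at 0 in control and all 8 detected in B16-F10 6 h. The highest single melanoma marker made up 25.9 CPM of the control sum and 19.1 CPM of the B16-F10 6 h sum. Restricted to gCap-like cells without a UMI of the mural, fibroblast, platelet or melanoma markers, the collagen IV log2 ratio was 0.53, against 0.48 in all. This kept 3098 of 4922 control and 1851 of 4516 B16-F10 6 h cells, so it removed a larger part of the B16-F10 6 h library. Markers of other types were not used for this restriction, among them epithelial (345 and 362 CPM) and red cell markers (1218 and 1436 CPM). In aCap-like ECs mural markers summed to 34.1 and 21.8 CPM and fibroblast markers to 5.41 and 13.02 CPM. The same restriction kept 807 control and 389 B16-F10 6 h aCap-like cells and gave 0.15 against 0.12.

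Free RNA held the same transcripts. In barcodes with at most 100 UMIs Col4a1 was at 706 CPM in control and 858 CPM in B16-F10 6 h, Col4a2 at 480 and 608 CPM and Lama1 at 1.23 and 3.79 CPM. Haemoglobin transcripts put free RNA at 2.13% and 3.27% of the UMIs of gCap-like ECs, which at those levels is 15.1 and 28.0 CPM of Col4a1. In vein-like ECs the share was 0.911% and 7.78%, which is 6.43 and 66.7 CPM of Col4a1, beside levels of 416 and 550 CPM. For vein-like Col4a2 it is 4.37 and 47.3 CPM, beside 157 and 275 CPM.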

How the data were processed

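The authors deposited raw UMI counts per gene and barcode for all barcodes, with no normalization, and the file headers name Cell Ranger 7.2.0. The submitters' processing notes also name mm10 and Seurat 4.4.0. The study's methods give an earlier Cell Ranger version and 3 pooled mice where the labels give 2, and the labels name a v2 kit whose barcode set is smaller than the list deposited, so these are unsettled. Whether intronic reads were counted is not given in the sources used here, and the genes described span 10.8 to 145 kb. These are 3' tags, so a gene's share of the UMIs of several genes was compared between classes and libraries and is not a share of molecules. The libraries held 85794655 and 104978816 UMIs, and 36 barcodes with at least 300 genes occurred in both.

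Barcodes with 1000 to 5000 genes and less than 20% of UMIs from mitochondria entered as cells (8394 control, 8321 B16-F10 6 h). Scrublet scores (scanpy 1.11.5, Python 3.11.15) removed the top 564 (6.72%) and 554 (6.66%) as doublets, at 0.8% per 1000 cells. Of 3000 variable genes 2931 remained without the 10 genes, the lists described and the study's rCap and interferon markers. Genes were scaled within each library, and 30 principal components, 20 neighbours and leidenalg 0.10.2 at resolution 0.8 gave 21 clusters. A marker counted at 1.5-fold over the other clusters and in 10% of cells, and a class needed 50% of its list, with 6 of 8 endothelial markers each in 50% of cells for ECs. Clusters that also met a non-endothelial list (mixed, 414 and 503 cells) and ECs of no vessel class (183 and 338 cells) were kept out.

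UMIs were summed per class and library. With 1 library per group no p-value was computed, where the study had tested cells. A sum of 0 was read as up to 3 counts. A gene counted as measured at 50 or more UMIs in the 2 sums together, and a log2 ratio of 0.5 in either direction set which genes of the lists of other basement membrane and collagen assembly genes (25 of 26 of the latter found in the matrix) were named, beside Hspg2, Sparc and Serpinh1 and the 5 genes with the highest Pearson's r to Col4a1. Free RNA was taken from barcodes with 1 to 100 UMIs. The 10 genes, all lists and the naming thresholds were chosen with earlier results of these data known. The summing and ratio steps were tested on simulated data. Alternatives varied the cell limits, doublet removal, resolution, genes used for clustering, integration (Seurat 5.3.0), scaling, depth and cluster weights.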

Additional observations from a re-analysis of the deposited data

Results flagged for a closer look

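The direction of 2 genes differed between vessel classes beyond counting error, and the differences between classes were not tested. The log2 ratio of B16-F10 6 h over control was -0.46 for Lamc1 in aCap-like ECs and 0.56 in artery-like ECs, where it rested on 57 and 80 UMIs. For Nid1 it was 0.28 in gCap-like, -0.28 in aCap-like and 0.51 in vein-like ECs.

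Clusters that entered no vessel class also held these transcripts, above the control level beyond counting error. In the mixed cluster that met both endothelial and platelet lists (led by Ppbp), Col4a1 was at 928 CPM in B16-F10 6 h against 802 in control, Col4a2 at 609 against 462, and Lama1 at 7.49 CPM against 0 UMIs. In the mixed cluster that met the mural list (led by Postn), Col4a1 was at 1324 against 982 CPM, Col4a2 at 827 against 569, Nid1 at 175 against 138 and Lama1 at 7.40 CPM against 0 UMIs. In the mixed cluster that met the epithelial, mural and fibroblast lists (led by Scgb1a1), Col4a1 was at 1075 against 811 CPM, Col4a2 at 646 against 449 and Nid1 at 152 against 111.

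An EC cluster of no vessel class, led by Hbegf, held 10 control and 305 B16-F10 6 h cells. Lamc1 was at 350 CPM there against 185 in control (17 UMIs), and Col4a1 was at 2411 against 2608 CPM, above every vessel class in both libraries. A further unnamed EC cluster, led by Fabp4, Rbp7 and Timp4, held 173 and 33 cells. There Col4a1 was at 1941 against 1356 CPM and Col4a2 at 1177 against 975, both above every vessel class in both libraries. Lama4 was at 380 against 229, Lama5 at 96.1 against 54.0 and Lamb1 at 96.1 against 26.5.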

How the results depend on the processing

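The summed log2 ratios of collagen IV, laminin chains and nidogens were recomputed under the alternatives. Of 144 values, 115 stayed within the counting interval, 28 moved and 1 changed sign: laminin chains in gCap-like ECs were at -0.010 at resolution 1.6. In gCap-like ECs nidogens (0.28) were at 0.35 with no upper gene limit, 0.37 under 10% mitochondrial UMIs, 0.34 with doublets kept, 0.18 at resolution 1.6 and 0.22 after thinning. Collagen IV in gCap-like ECs (0.48) was at 0.30 at resolution 1.6 and 0.59 with the lists kept in the clustering. It was at 0.51 scaled by the median ratio and 0.53 without cells holding mural, fibroblast, platelet or melanoma marker UMIs. Chosen after seeing the data, weighting clusters by control shares and leaving out the Lalba-led cluster gave 0.27 and 0.28 for collagen IV, 0.11 and 0.11 for nidogens and 0.032 and 0.029 for laminins. In aCap-like ECs laminins (-0.26) were at -0.40 thinned and -0.16 weighted, and collagen IV (0.12) at 0.025 thinned and 0.15 without cells holding those markers. Artery-like collagen IV (0.73) was at 0.97 with no upper gene limit, 0.51 with at least 1500 genes, 0.42 at resolution 1.6, 0.25 with the lists kept and 0.50 with Seurat integration. Vein-like collagen IV (0.52) was at 0.36 with doublets kept and 0.35 without cells holding those markers. LEC-like collagen IV (-0.12) was at -0.57 thinned and -0.46 without cells holding those markers, which left 15 control and 11 B16-F10 6 h cells. Of 595 ratios of single genes 540 stayed within their interval and 0 of those beyond counting error changed sign. With genes of at least 10 UMIs, 2112 of 16599 were past 0.5 and 2882 past -0.5 in gCap-like ECs (1298 and 1659 with 50), and 1698 and 2194 of 13743 in aCap-like ECs (1044 and 1242). Of 40 shares of positive cells 29 moved beyond their interval when thinned to 4000 in place of 2000 UMIs. More UMIs per cell by themselves raise such shares, so this count does not measure how stable they are. The cause of the other shifts was not tested. No vessel cluster had a median under 4000 UMIs, so removing such clusters left all values as they were. Those unchanged values are counted above among the ratios that stayed within their interval. No paired analysis was possible because there is 1 library in each group, and no replicate could be left out. Depth limits LEC-like and artery-like ECs and Lama1, Lamb1 and Nid2 most.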
